A study of Anguilla anguilla with 12 samples.

Results

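The transcripts of eggs stripped after an injection of DHP (the progestin 17α,20β-dihydroxy-4-pregnen-3-one) were compared with those of oocytes taken just before it in the European eel. The comparison held 6 of the 12 libraries of the study and was chosen by sample group: libraries 4, 8 and 12 were eggs after DHP, and libraries 3, 7 and 11 were oocytes before DHP. The other 6 libraries came from females that received progesterone (P) instead. All females were wild-type eels that had been feminized with 17β-estradiol in their feed. They then swam in a simulated migration and received an implant with 17-methyltestosterone and 17β-estradiol. Weekly injections of carp pituitary extract and a booster matured them before the steroid. DHP was given at 2 mg per kg body weight, females were checked for eggs between 11 and 18 h after it, and 3 females per treatment gave both samples. Oocytes were drawn with a cannula, and 20 were selected per sample, and markers of follicle cells were present in their libraries, whereas ovulated eggs have left the follicle.

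In fish, DHP is the maturation-inducing steroid that the follicle makes at the end of oocyte growth. At the oocyte surface it starts meiosis again through maturation-promoting factor, the complex of cyclin B with the kinase Cdk1, after which the nuclear envelope breaks down and the oocyte takes up water and arrests in metaphase of the second meiotic division. In the follicle cells it acts through nuclear progestin receptors on ovulation, the release of the egg from its follicle. A full-grown oocyte makes almost no new RNA, and in several vertebrates its stored mRNAs are switched on and off by lengthening and shortening of their poly(A) tails.

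The libraries were made from RNA with poly(A) tails, and values are counts of fragments per annotated gene. In such libraries a shorter or longer tail and a smaller or larger amount of an mRNA cannot be told apart, and neither can fewer cells of a type and less RNA per cell. Eggs gave 8531099, 8915962 and 7627353 counted fragments in libraries 4, 8 and 12, against 9241120, 6612347 and 7985126 in oocyte libraries 3, 7 and 11. Fewer genes had a count in eggs (17284, 18898 and 18082) than in oocytes (20646, 20782 and 21378), and the 100 most abundant genes held 24.3, 24.5 and 23.6% of the fragments in eggs, against 20.02, 18.9 and 18.7% in oocytes. Below, triplets of normalized counts follow the order 4, 8 and 12 for eggs and 3, 7 and 11 for oocytes. They are counts divided by the TMM-scaled library size and multiplied by the mean of these sizes over the 6 libraries. P-values measure the spread between 3 libraries per group.

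Egg library 8 and oocyte library 3 stood apart from the other libraries of their groups on the first principal component. It held 67.0% of the variance, and eggs scored 129, 69.3 and 128 and oocytes -94.2, -120 and -112, so that both libraries lay nearer to the opposite group. On the second component (13.4%) egg 4 stood apart from the other eggs, with 85.8, -35.9 and -62.1 in eggs and 40.5, -2.94 and -25.3 in oocytes. The positions of egg 8 and oocyte 3 were also read in genes called in the 6 P libraries, among those with enough counts in the 6 DHP libraries to be tested. The choice was thus not free of the DHP libraries. Among 3305 genes that were lower in eggs after P, egg 8 was the highest of the 3 DHP eggs in 57.0% and oocyte 3 the lowest of the 3 DHP oocytes in 55.1%. Among 2734 genes that were higher in eggs after P, oocyte 3 was the highest of the DHP oocytes in 65.3%, whereas the lowest DHP egg was egg 8 in 33.8% and egg 4 in 47.6%, so that egg 8 did not stand apart in this set.

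The labelled cell types were checked against markers. Eggs had lower sums than oocytes for markers of granulosa cells (13.2, 34.7 and 5.58 in eggs, against 1273, 1205 and 429.8 normalized counts in oocytes over 12 genes), theca and other steroid-making cells (451, 1403 and 918 over 9 genes in eggs, against 3795, 8448 and 6168 in oocytes) and vascular smooth muscle and pericytes (186, 225 and 265 over 9 genes in eggs, against 6538, 1784 and 1348 in oocytes). The theca sums of eggs rested mainly on LOC118214003, which overlapped between the groups and did not pass the test (351.1, 1143 and 698.7 in eggs, against 420.3, 413.9 and 497.6 in oocytes). Of 8 tested smooth muscle markers 3 were called lower and 0 higher. The smooth muscle sums of eggs 4 and 12 rested mainly on LOC118221453, which also overlapped and did not pass (143.7, 49.05 and 184.1 in eggs, against 129.1, 33.75 and 76.93 in oocytes). In oocyte 3 the sum rested mainly on tagln (2210) and acta2 (1662), which did not pass. Fibroblast and stroma markers summed to 1159, 1427 and 1284 in eggs, against 14520, 17650 and 5114 in oocytes over 15 genes, but this sum rested mainly on LOC118214884, a collagen alpha-2(I)-like gene that did not pass the test (5.49, 365 and 5.58 in eggs, against 12023, 17099 and 2546 in oocytes). Of 10 tested fibroblast markers 3 were called lower and 2 higher in eggs, the collagen genes LOC118231824 and si:dkey-61l1.4. Of the 12 granulosa markers 10, 6 and 10 were at 0 in eggs 4, 8 and 12, against 5, 3 and 2 in oocytes 3, 7 and 11, and 2 had no count in any of the 6. The receptor gene fshr had too few counts to be tested and overlapped between the groups (0, 7.18 and 0 in eggs, against 40.5, 34.7 and 6.69 in oocytes). Sums for endothelium, erythrocytes and leukocytes were at most 898 in every library, and those of endothelium and leukocytes overlapped between eggs and oocytes. Markers of the oocyte itself were present in all 6 libraries and summed to 7074, 10270 and 6886 in eggs, against 13310, 23770 and 24450 in oocytes over 28 genes. They include zona pellucida genes, which are described below. Of 26 tested oocyte markers 9 were called lower and 2, ddx4 and dnd1, higher.

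**Figure D1:**
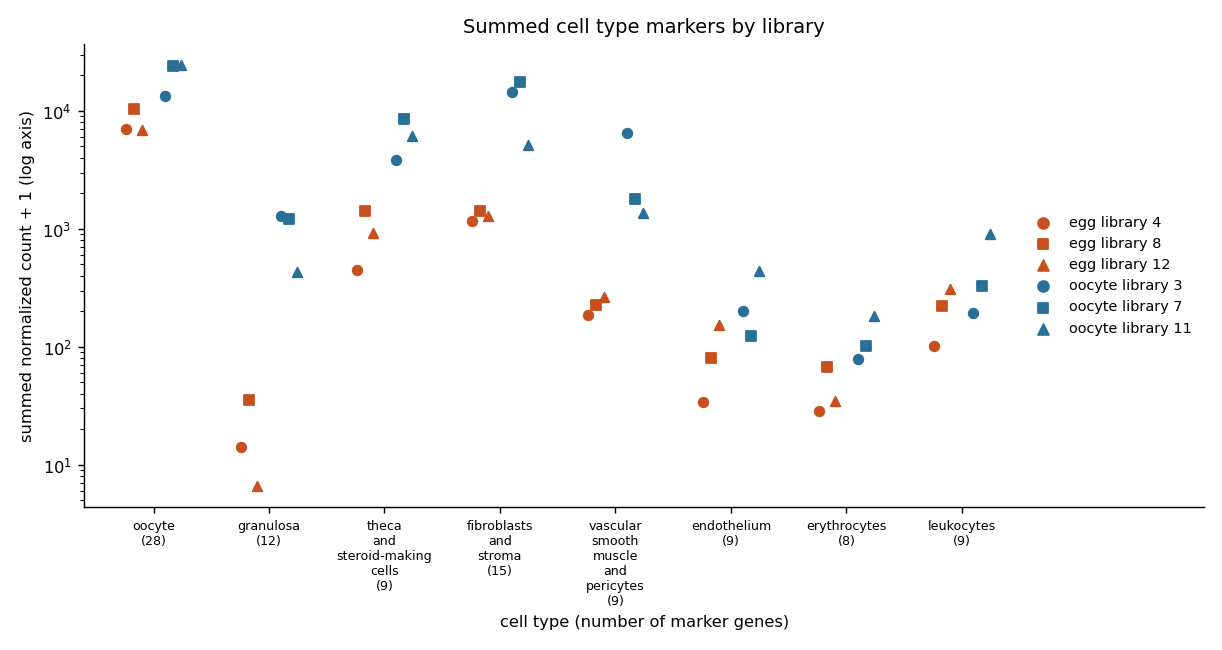
Summed normalized counts of the marker genes of 8 cell types (log axis, 1 added) in the 3 egg libraries (orange) and the 3 oocyte libraries (blue), with 1 point per library and the number of genes in brackets. Granulosa markers summed to 5.58 to 34.7 in eggs and to 429.8 to 1273 in oocytes, while leukocyte and endothelium points overlap.

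Of 15149 genes that passed the filter on low counts, 2057 (13.6%) were differentially expressed at an adjusted p under 0.01 in edgeR's quasi-likelihood test, 1114 of them (7.35%) higher and 943 (6.22%) lower in eggs. In all 2057 the 3 eggs lay above or below the 3 oocytes without overlap. These shares are the background for every gene list below, beside a median log2 fold change of all tested genes of -0.20. The egg and oocyte libraries did not overlap in 7740 genes (51.1%), with eggs above oocytes in 3354 (22.1%) and below them in 4386 (29%). The fit was repeated with each of the 6 libraries left out in turn, and the number of these fits in which a gene was called in the same direction follows its p-value below. Each of these fits has a library fewer and thus less power, so a lost call need not reflect the library left out. With the 3 pairs of libraries as a block, 2732 genes (18%) were called, 1381 (9.12%) higher and 1351 (8.92%) lower. Scaling by total counts instead of TMM moved the median of all genes to -0.80 and the calls to 490 higher and 2105 lower, so directions of small changes hold only relative to the scaling. Genes that were called higher were mostly abundant genes with moderate changes: their median log2 fold change was 2.20, 688 changed more than 4-fold and 10 more than 32-fold. Genes called lower changed more, with a median of -3.70 and 339 of them past 32-fold. They included 88 genes without a single count in the 3 egg libraries, and no tested gene was without a count in oocytes.

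**Figure D2:**
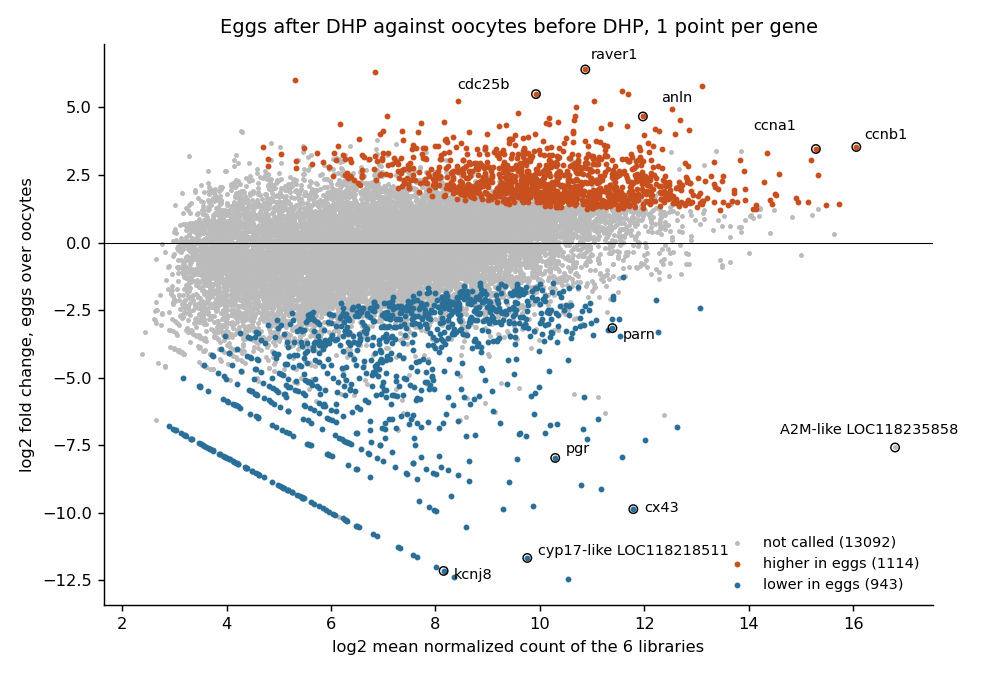
Log2 fold change of eggs after DHP over oocytes before DHP against the log2 mean normalized count of the 6 libraries, with 1 point per tested gene, orange where called higher (1114), blue where called lower (943) and grey where not called. The lowest diagonal line of points holds genes without a count in eggs, whose fitted values depend on a prior count, and the most abundant gene, LOC118235858, is grey.

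Genes called higher took up 44.7, 39.99 and 42.8% of all counted fragments in eggs, against 17.8, 13.8 and 14.2% in oocytes. Genes called lower held 0.654, 1.00 and 0.569% in eggs, against 9.21, 9.66 and 8.05% in oocytes. The leading transcript of the eggs was ccnb1, which encodes cyclin B1 and held 1.28, 1.11 and 1.3% of fragments in eggs, against 0.245, 0.123 and 0.111% in oocytes. Behind it in eggs were cdc20, an activator of the anaphase-promoting complex (0.64, 0.891 and 0.761% in eggs, against 0.308, 0.419 and 0.585% in oocytes), ccna1 for cyclin A1 (0.769, 0.714 and 0.67% in eggs, against 0.0878, 0.112 and 0.0973% in oocytes) and LOC118222665 for an RNA-binding protein annotated as heterogeneous nuclear ribonucleoprotein A0-like (0.828, 0.585 and 0.642% in eggs, against 0.272, 0.144 and 0.122% in oocytes). In oocytes the leading transcript was LOC118235858, annotated as alpha-2-macroglobulin-like, a family of broad protease inhibitors. It held 4.65, 3.57 and 1.85% of fragments in oocytes 3, 7 and 11, against 0, 0.0332 and 3.93e-05% in eggs 4, 8 and 12. Its normalized counts of 0, 3546 and 4.18 in eggs, against 322710, 234470 and 123740 in oocytes, did not overlap, but the spread among eggs was so wide that the gene did not pass the unpaired test (log2 fold change -7.58 ± 2.29, adjusted p = 0.0301, 0.00912 with the pairs). Several abundant transcripts of both stages did not pass the test, among them cathepsin S-like LOC118220535 (20178, 31620 and 30983 in eggs, against 28999, 35421 and 48932 in oocytes) and LOC118223254, a homologue of Bouncer, the sperm-binding protein of the fish egg membrane (16706, 48046 and 50464 in eggs, against 11567, 19935 and 27849 in oocytes). Shares were not corrected for transcript length.

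The cell cycle list of cyclins, cyclin-dependent kinases (CDKs) and their phosphatases had 62 tested genes, of which 13 were higher and 8 lower in eggs. Its median log2 fold change was -0.10, near that of all genes and 0.00 with RLE scaling, yet the summed normalized counts of the list were 363200, 384600 and 405300 in eggs, against 79190, 64470 and 62250 in oocytes. Cyclins A1, B1 and B2 of M phase held most of this sum in eggs. Cyclin A1 had 71985, 76188 and 71304 in eggs, against 6087, 7326 and 6500.1 in oocytes (log2 fold change 3.46 ± 0.25, adjusted p = 0.000688, called in 6 of 6 fits without 1 library). Cyclin B1 had 120110, 118770 and 138030 in eggs, against 17003, 8074 and 7412 in oocytes (log2 fold change 3.54 ± 0.37, adjusted p = 0.00166, called in 6 of 6), and cyclin B2 had 63796, 68857 and 66608 in eggs, against 11199, 6173 and 6746 in oocytes (log2 fold change 3.05 ± 0.30, adjusted p = 0.00153, called in 6 of 6). Oocyte 3 was the highest oocyte for both B cyclins, and the 3 eggs lay far above it. LOC118236341, annotated as cyclin-J-like, was also higher (1229, 1135 and 1796 in eggs, against 114, 66.5 and 79.4 in oocytes, log2 fold change 4.0 ± 0.40, adjusted p = 0.00153, called in 6 of 6), as was cdc25b, whose phosphatase removes the inhibitory phosphates from Cdk1 (2576, 1137 and 1986 in eggs, against 77.3, 17.9 and 30.1 in oocytes, log2 fold change 5.49 ± 0.63, adjusted p = 0.00184, called in 6 of 6). On the lower side were ccni, an atypical cyclin (14.3, 49.1 and 23.7 in eggs, against 559.9, 634 and 552 in oocytes, log2 fold change -4.32 ± 0.53, adjusted p = 0.00191, called in 5 of 6), cdk18 (0, 7.18 and 0 in eggs, against 215, 200.5 and 135 in oocytes, log2 fold change -6.17 ± 1.04, adjusted p = 0.00391, called in 2 of 6) and LOC118217070, annotated as a CDK4-like kinase of the G1 phase (0, 1.2 and 0 in eggs, against 34.5, 104 and 31.8 in oocytes, log2 fold change -6.74 ± 1.12, adjusted p = 0.00373, called in 3 of 6). The number of higher genes in the list lay between 7 without library 12 and 14 without library 3, the number of lower ones between 0 without library 12 and 6 without library 8.

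**Figure D3:**
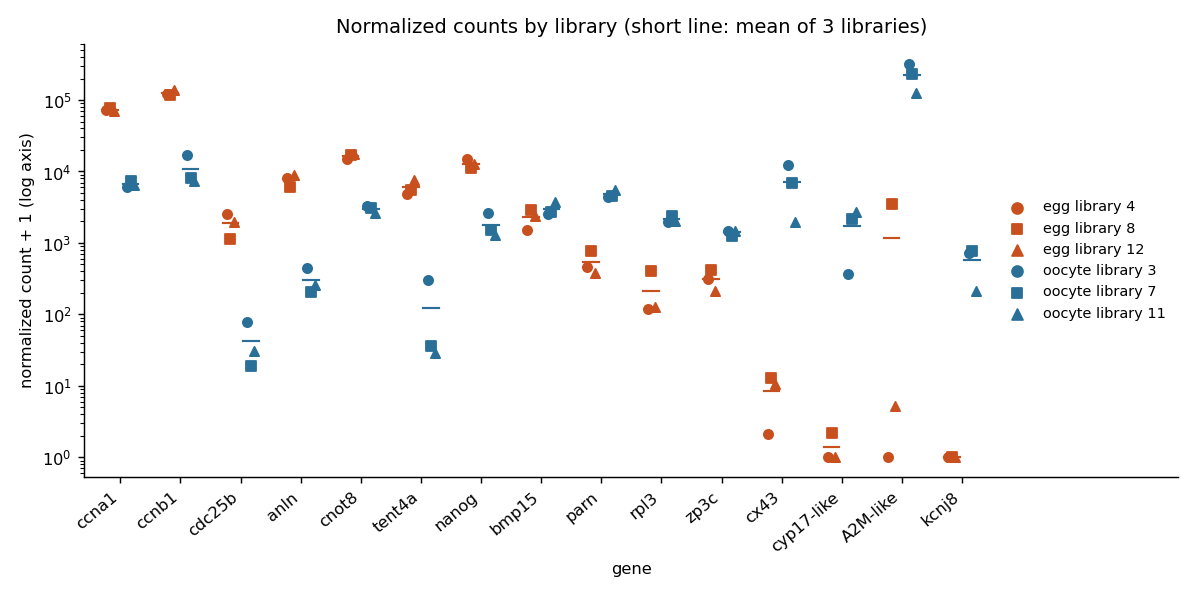
Normalized counts plus 1 (log axis) of 15 genes in the 3 egg libraries (orange) and 3 oocyte libraries (blue), with 1 point per library and a short line at each mean. Cyclins A1 and B1 sit within narrow ranges in eggs, bmp15 overlaps between the groups, and the alpha-2-macroglobulin-like gene spans 0 to 3546 in eggs.

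Of 110 tested kinetochore, spindle, kinesin and centrosome genes, 24 were higher and 3 lower, and the median log2 fold change was 0.70 (0.12 with total counts). Those with the smallest p were anln, which links actin and the spindle in cytokinesis (8108, 6103 and 8969.9 in eggs, against 450.3, 202 and 260.1 in oocytes, log2 fold change 4.66 ± 0.41, adjusted p = 0.00134, called in 6 of 6), kif22, a chromosome-bound kinesin (24391, 26786 and 26901 in eggs, against 4129, 2846 and 2408 in oocytes, log2 fold change 3.06 ± 0.30, adjusted p = 0.00153, called in 6 of 6), tpx2, an activator of Aurora A kinase (39274, 33442 and 41485 in eggs, against 5861, 2550 and 3022 in oocytes, log2 fold change 3.32 ± 0.37, adjusted p = 0.00184, called in 6 of 6) and prc1b, a microtubule bundler of the central spindle (6579, 8309 and 9155 in eggs, against 1454, 829.8 and 1146 in oocytes, log2 fold change 2.81 ± 0.32, adjusted p = 0.00184, called in 6 of 6). All 4 were called without any 1 library, and none overlapped between the groups. 3 kinetochore and centromere genes went the other way in eggs, with nsl1 at 21.9, 12 and 8.37 in eggs, against 64.5, 210.4 and 141 in oocytes (log2 fold change -3.28 ± 0.66, adjusted p = 0.00682, 0.01 with the pairs, called in 1 of 6), cenps at 38.4, 82.5 and 33.5 in eggs, against 273, 344 and 329 in oocytes (log2 fold change -2.61 ± 0.49, adjusted p = 0.00545, called in 2 of 6) and zw10 at 57.1, 100.5 and 62.8 in eggs, against 309, 396 and 332 in oocytes (log2 fold change -2.23 ± 0.43, adjusted p = 0.00573, called in 1 of 6). The number of higher genes lay between 4 without library 12 and 22 without library 3.

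Of the anaphase-promoting complex and its regulators, 27 genes were tested, 4 higher and 2 lower, with a median of 0.16 that turned to -0.48 with total counts. The higher genes encode both inhibitors and effectors of anaphase. Securin pttg1, which holds separase inactive, had 15913, 24308 and 23596 in eggs, against 5809.8, 5058 and 5537 in oocytes (log2 fold change 1.96 ± 0.27, adjusted p = 0.00239, called in 3 of 6), and separase espl1, which cuts cohesin, had 5225, 6386 and 12329 in eggs, against 1380.2, 1217 and 1975 in oocytes (log2 fold change 2.39 ± 0.39, adjusted p = 0.00364, called in 3 of 6). LOC118233086, annotated as F-box only protein 43-like, whose mammalian and frog counterpart Emi2 keeps the complex inactive in metaphase eggs, had 25723, 36810 and 34915 in eggs, against 10242, 11955 and 14160 in oocytes (log2 fold change 1.42 ± 0.27, adjusted p = 0.00523, called in 2 of 6). The lower genes were complex subunits, anapc13 (41.7, 77.8 and 15.3 in eggs, against 290.4, 299 and 295 in oocytes, log2 fold change -2.71 ± 0.59, adjusted p = 0.00874, called in 1 of 6) and anapc7 (308, 377 and 259 in eggs, against 777, 1008 and 927 in oocytes, log2 fold change -1.52 ± 0.33, adjusted p = 0.00902, called in 0 of 6). For mos, the kinase upstream of Emi2 in the arrest, counts overlapped and the difference did not pass the test (2720, 4658 and 3018 in eggs, against 4308, 5016 and 4853 in oocytes, log2 fold change -0.45 ± 0.30, adjusted p = 0.267). None of the 4 higher calls was kept in every fit that left out 1 library, and without libraries 12, 7 or 11 no gene of the list was called.

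Of 56 tested genes of replication licensing and DNA synthesis, 11 were higher and 1 lower, with a median log2 fold change of 0.15 that turned to -0.45 with total counts. cdc6, a loader of the replicative helicase, had 8389, 5082 and 6899 in eggs, against 1167, 913 and 1220.1 in oocytes (log2 fold change 2.63 ± 0.31, adjusted p = 0.00185, called in 6 of 6). Its partner cdt1 had 11779, 7945 and 11864 in eggs, against 2329, 2307 and 3302 in oocytes (log2 fold change 1.99 ± 0.30, adjusted p = 0.00291, called in 3 of 6), the replication kinase cdc7 had 2172, 2294 and 2544 in eggs, against 411, 245 and 135 in oocytes (log2 fold change 3.14 ± 0.44, adjusted p = 0.00234, called in 4 of 6) and the catalytic subunit of polymerase alpha, pola1, had 5448, 5504 and 6853 in eggs, against 1875, 1105 and 1586 in oocytes (log2 fold change 1.96 ± 0.31, adjusted p = 0.00318, called in 3 of 6). Oocyte 3 carried far more than the other oocytes of some of these transcripts. The Cdt1 inhibitor geminin, gmnn, had 19275, 7158 and 8082 in eggs, against 959.9, 99.3 and 72.8 in oocytes (log2 fold change 4.93 ± 1.00, adjusted p = 0.00705, called in 2 of 6), and the origin recognition subunit orc6 had 6938, 5233 and 7135 in eggs, against 384, 8.93 and 35.1 in oocytes (log2 fold change 5.49 ± 1.15, adjusted p = 0.00763, called in 1 of 6). The helicase subunit mcm4 was the only lower gene (248, 549 and 264 in eggs, against 1118, 1634 and 1922 in oocytes, log2 fold change -2.14 ± 0.42, adjusted p = 0.00607, called in 2 of 6). The number of higher genes lay between 1 without libraries 12 and 7 and 11 without library 3.

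Of 88 tested genes that shorten or lengthen poly(A) tails or degrade mRNA, 8 were higher and 5 lower, shares near those over all genes, and the median was -0.36. The deadenylase gene parn, known from frog oocytes for the trimming of tails during maturation, had 456.4, 776 and 378 in eggs, against 4434, 4591 and 5439 in oocytes (log2 fold change -3.17 ± 0.36, adjusted p = 0.00184, called in 6 of 6), with differences of -3.28, -2.56 and -3.84 on the log2 scale in the 3 pairs. cnot8, a catalytic subunit of the CCR4-NOT deadenylase, had 15116, 17253 and 17747 in eggs, against 3335, 3087 and 2659 in oocytes (log2 fold change 2.46 ± 0.26, adjusted p = 0.0017, called in 6 of 6) and pan3, of the PAN2-PAN3 deadenylase, had 7573, 7878 and 10737 in eggs, against 2639.6, 1326 and 1308 in oocytes (log2 fold change 2.31 ± 0.36, adjusted p = 0.00324, called in 3 of 6). The genes for these 2 other deadenylases were thus higher in eggs while parn was lower. tent4a, for a nucleotidyltransferase that extends tails, had 4789, 5509 and 7639.5 in eggs, against 301, 35.7 and 27.6 in oocytes (log2 fold change 5.61 ± 0.92, adjusted p = 0.00363, called in 2 of 6), again with oocyte 3 far above the other oocytes. The nuclear poly(A)-binding protein gene pabpn1 was lower (346, 251 and 227 in eggs, against 877, 824 and 978 in oocytes, log2 fold change -1.70 ± 0.34, adjusted p = 0.00642, called in 0 of 6), as was btg1 (59.2, 86.1 and 57.2 in eggs, against 1115, 442 and 370.5 in oocytes, log2 fold change -3.25 ± 0.53, adjusted p = 0.00354, called in 3 of 6). Its relative btg4, which recruits CCR4-NOT to maternal mRNAs in mouse and fish, did not pass the test (8721, 23437 and 17978 in eggs, against 13076, 12477 and 12397 in oocytes, log2 fold change 0.40 ± 0.35, adjusted p = 0.396). The lower genes numbered between 1 without libraries 12 and 7 and 5 without library 8, the higher ones between 1 without libraries 12, 7 and 11 and 9 without library 8.

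Germ plasm and small RNA factors mark the future germ cells of the embryo and silence RNAs. Of 34 tested genes 7 were higher and 0 lower, with a median of 0.79 (0.19 with total counts). ddx4, for the germ plasm helicase Vasa, had 2001, 818 and 904 in eggs, against 80.3, 45.7 and 56 in oocytes (log2 fold change 4.35 ± 0.50, adjusted p = 0.00184, called in 6 of 6), and ago2, for the slicing Argonaute, had 1802, 1091 and 1697 in eggs, against 145, 107 and 61.9 in oocytes (log2 fold change 3.87 ± 0.44, adjusted p = 0.00184, called in 6 of 6). dnd1, which shields germ cell mRNAs from microRNAs, was nearly absent from oocytes (229, 152 and 296 in eggs, against 4.5, 0.993 and 2.51 in oocytes, log2 fold change 6.29 ± 0.68, adjusted p = 0.00175, called in 6 of 6). nanos3, a translational repressor of germ cells, had 3622, 3174 and 2265 in eggs, against 1091, 863 and 805 in oocytes (log2 fold change 1.72 ± 0.31, adjusted p = 0.00483, called in 1 of 6). Among members that did not pass was ybx1, an mRNA-masking protein (11110, 9792 and 9397 in eggs, against 5056, 4569 and 5477 in oocytes, log2 fold change 1.00 ± 0.25, adjusted p = 0.0145). The number of higher genes lay between 3 without libraries 12, 7 and 11 and 6 without library 3. Among genes averaging 50 or more normalized counts, the largest increase was that of raver1, which encodes a nuclear partner of the splicing repressor PTB (4170.5, 2551 and 4368 in eggs, against 63.8, 33.7 and 32.6 in oocytes, log2 fold change 6.40 ± 0.46, adjusted p = 0.000688, called in 6 of 6).

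Of 77 tested pluripotency and embryonic transcription factors 4 were higher and 6 lower (median -0.56), shares near those over all genes. The higher ones included the 3 whose zebrafish counterparts switch on the embryonic genome. pou5f3 had 6182, 2715 and 3298 in eggs, against 193, 59.6 and 66.1 in oocytes (log2 fold change 5.25 ± 0.60, adjusted p = 0.00184, called in 6 of 6), nanog had 14899, 11178 and 12600 in eggs, against 2588, 1528 and 1304 in oocytes (log2 fold change 2.84 ± 0.34, adjusted p = 0.00185, called in 5 of 6) and sox19b had 20275, 18101 and 20108 in eggs, against 7883, 5911 and 6611 in oocytes (log2 fold change 1.52 ± 0.25, adjusted p = 0.00364, called in 3 of 6). All 3 were already present in every oocyte library. The lower ones included gata4 (0, 34.7 and 0 in eggs, against 1779.5, 1191 and 625 in oocytes, log2 fold change -6.67 ± 1.26, adjusted p = 0.00548, called in 1 of 6), gata6 (0, 63.4 and 1.39 in eggs, against 2788, 2828 and 1377 in oocytes, log2 fold change -6.74 ± 1.29, adjusted p = 0.00564, called in 2 of 6) and foxl2a (0, 13.2 and 0 in eggs, against 698, 661 and 236 in oocytes, log2 fold change -6.86 ± 1.13, adjusted p = 0.00367, called in 3 of 6), which are known from granulosa and theca cells. Egg 8 was the highest egg in each, as it was for the summed granulosa markers. foxl2a is itself among those markers, so its likeness to the sum was fixed beforehand. The part of these cells in the result was not tested. Higher factors numbered between 1 without library 7 and 3 without libraries 4, 8 and 3, and lower ones between 0 without libraries 4, 12 and 7 and 4 without library 8. In the Wnt pathway, 6 of 40 tested genes were higher and 0 lower (median -0.36). Among them were ctnnb1 for beta-catenin (10824, 10064 and 12431 in eggs, against 4096, 3044 and 4825 in oocytes, log2 fold change 1.48 ± 0.28, adjusted p = 0.00544, called in 2 of 6) and dvl2 for a Dishevelled protein (1532, 1696 and 1379 in eggs, against 296, 346 and 314 in oocytes, log2 fold change 2.27 ± 0.31, adjusted p = 0.00216, called in 3 of 6), both parts of the pathway that sets the dorsal side of the fish embryo. The maternal ligand gene LOC118222498, annotated as Wnt-8a-like, rose at a low level (79, 55 and 41.8 in eggs, against 6, 5.96 and 5.85 in oocytes, log2 fold change 3.28 ± 0.62, adjusted p = 0.00535, called in 0 of 6). The Wnt calls numbered between 0 without libraries 12, 7 and 11 and 5 without library 3.

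Of 26 tested histone genes, 7 were higher and 2 lower (median -0.17). Replacement variants were among the higher genes. LOC118217266 for H3.3A had 9706, 10787 and 6693 in eggs, against 1854, 1485 and 714 in oocytes (log2 fold change 2.75 ± 0.40, adjusted p = 0.00273, called in 4 of 6), LOC118231304 for H2A.Z had 12597, 11395 and 9084 in eggs, against 3338, 2088 and 2148 in oocytes (log2 fold change 2.13 ± 0.31, adjusted p = 0.00256, called in 3 of 6) and LOC118233606 for the centromeric variant CENP-A had 1785, 1921 and 2150.4 in eggs, against 555, 381 and 454 in oocytes (log2 fold change 2.07 ± 0.31, adjusted p = 0.00289, called in 3 of 6). LOC118217642 for macro-H2A.2, a variant known from silent chromatin, had 1817, 1302 and 1340.2 in eggs, against 252, 200.5 and 142 in oocytes (log2 fold change 2.91 ± 0.37, adjusted p = 0.00196, called in 5 of 6). Linker histones were called in both directions. LOC118216562 for H1.0-B, the linker of resting somatic cells, had 13.2, 50.2 and 40.4 in eggs, against 2969, 1444 and 947 in oocytes (log2 fold change -5.69 ± 0.66, adjusted p = 0.00184, called in 5 of 6), whereas LOC118211021, annotated as protein B4 after the egg-type linker histone of frogs, had 68187, 69506 and 60086 in eggs, against 29748, 20406 and 26158 in oocytes (log2 fold change 1.37 ± 0.25, adjusted p = 0.00455, called in 1 of 6). The other histone gene called lower was a core histone annotated as H2A-like. The core histone genes LOC118235662 for H2A and LOC118235663 for H2B 3 did not pass (log2 fold change 0.98 ± 0.31, adjusted p = 0.0342 and log2 fold change 1.25 ± 0.33, adjusted p = 0.0184, 0.00817 with the pairs). Bulk histone mRNAs of dividing cells lack poly(A) tails and are then missed by such libraries. Among 121 chromatin writers, erasers and remodellers 25 were higher and 9 lower, with a median of 0.08 that turned to -0.50 with total counts. setd1a, a methyltransferase for lysine 4 of histone H3, had 2017, 1401 and 2789 in eggs, against 328, 104 and 115 in oocytes (log2 fold change 3.50 ± 0.53, adjusted p = 0.00301, called in 3 of 6), and tet2, a DNA demethylation enzyme, had 0, 4.79 and 1.39 in eggs, against 487, 215 and 78.6 in oocytes (log2 fold change -6.91 ± 1.06, adjusted p = 0.00305, called in 4 of 6). Higher histone genes numbered between 0 without library 7 and 7 without libraries 8 and 3, and higher chromatin genes between 0 without library 7 and 19 without libraries 8 and 3.

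Ribosomal proteins are among the most abundant products of growing cells. Of 118 tested genes for cytosolic ribosomal proteins, 0 were higher and 53 lower in eggs. Their median log2 fold change was -2.98, and 110 of them had all eggs below all oocytes. Summed normalized counts were 9728, 35360 and 9961 in eggs, against 84680, 146300 and 115800 in oocytes, with egg 8 between the other eggs and the oocytes. Egg 8 was also the egg with the highest granulosa and theca marker sums (34.7 and 1403). Its theca sum rested mainly on LOC118214003 (1143 in egg 8), and the part of these cells in the result was not tested. rpl3 had 116, 403 and 126 in eggs, against 1990.4, 2416 and 2061 in oocytes (log2 fold change -3.32 ± 0.52, adjusted p = 0.00325, called in 3 of 6), LOC118227612 for S6 had 68, 146 and 51.6 in eggs, against 1070.2, 1063 and 1085 in oocytes (log2 fold change -3.60 ± 0.46, adjusted p = 0.00201, called in 5 of 6), and LOC118235015 for L39 had 5.49, 9.57 and 12.6 in eggs, against 478, 354 and 234 in oocytes (log2 fold change -5.27 ± 0.57, adjusted p = 0.00175, called in 6 of 6). The most abundant members among those that did not pass, rpl7a (295, 1597 and 261 in eggs, against 3037, 5476 and 4298 in oocytes, log2 fold change -2.57 ± 0.67, adjusted p = 0.0181, 0.00404 with the pairs) and rps2 (97.7, 957 and 126 in eggs, against 1995, 4123 and 3454 in oocytes, log2 fold change -3.02 ± 0.82, adjusted p = 0.0203, 0.00387 with the pairs), had egg 8 well above the other eggs. With the pairs as a block 101 ribosomal protein genes were lower. The number lay between 1 without library 12 and 95 without library 8.

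Of 97 tested subunits of oxidative phosphorylation 6 were lower, a share near that over all genes, and 0 higher, with a median of -1.87, 88 negative log2 fold changes and 70 genes with eggs below oocytes. With the pairs 40 were lower, and the number lay between 0 without libraries 12, 7 and 11 and 42 without library 8. LOC118208690, a core subunit of complex III, had 147, 199.8 and 139 in eggs, against 702, 829 and 1035 in oocytes (log2 fold change -2.40 ± 0.36, adjusted p = 0.00291, called in 3 of 6), while atp5f1b, the beta subunit of ATP synthase, did not pass (3590.1, 14117 and 7199 in eggs, against 9908, 15771 and 18107 in oocytes, log2 fold change -0.81 ± 0.46, adjusted p = 0.197). Of 77 mitochondrial ribosomal proteins 2 were lower (10 with the pairs, median -1.36), and of 48 proteasome subunits 8 (15 with the pairs, median -1.35). Of 10 subunits of the chaperonin CCT, which folds actin and tubulin, 2 were lower (4 with the pairs, median -0.99). Of 22 tubulins 6 were lower and 0 higher, led by LOC118222970, an alpha tubulin (6.58, 17.9 and 18.1 in eggs, against 444, 571 and 425 in oocytes, log2 fold change -5.08 ± 0.54, adjusted p = 0.00172, called in 6 of 6). Without 1 library the lower genes numbered between 0 without libraries 4, 12, 7 and 11 and 7 without library 8 for mitochondrial ribosomal proteins, between 0 without libraries 4, 12, 7 and 11 and 13 without library 8 for the proteasome, between 0 without libraries 4, 12, 7 and 11 and 2 without library 8 for CCT and between 1 without library 12 and 9 without library 8 for tubulins. The alpha tubulin LOC118213846 did not pass (8847, 15906 and 10882 in eggs, against 10504, 6639.5 and 8704 in oocytes, log2 fold change 0.46 ± 0.31, adjusted p = 0.27).

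Translation factors did not all follow the ribosomal proteins. Of 74 tested, 4 were higher and 14 lower (median -0.94). Elongation factors were on the lower side, LOC118233278 for elongation factor 1-alpha at 1943, 4409.8 and 1736 in eggs, against 10832, 16841 and 15399 in oocytes (log2 fold change -2.41 ± 0.41, adjusted p = 0.00392, called in 2 of 6) and LOC118225885 for elongation factor 2 at 139, 505 and 167 in eggs, against 2056, 2495 and 2392 in oocytes (log2 fold change -3.10 ± 0.51, adjusted p = 0.00372, called in 2 of 6). The helicase gene eif4a1a of cap-dependent initiation was higher (46115, 45989 and 47036 in eggs, against 18275, 14947 and 16392 in oocytes, log2 fold change 1.49 ± 0.23, adjusted p = 0.00314, called in 3 of 6), as was eif3s10 of the initiation scaffold eIF3 (5596, 4996 and 5140.4 in eggs, against 2005, 1272 and 1911 in oocytes, log2 fold change 1.60 ± 0.29, adjusted p = 0.00482, called in 2 of 6). The lower factors numbered between 0 without libraries 12, 7 and 11 and 18 without library 8, the higher ones between 0 without libraries 12, 7 and 11 and 4 without library 3.

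**Figure D4:**
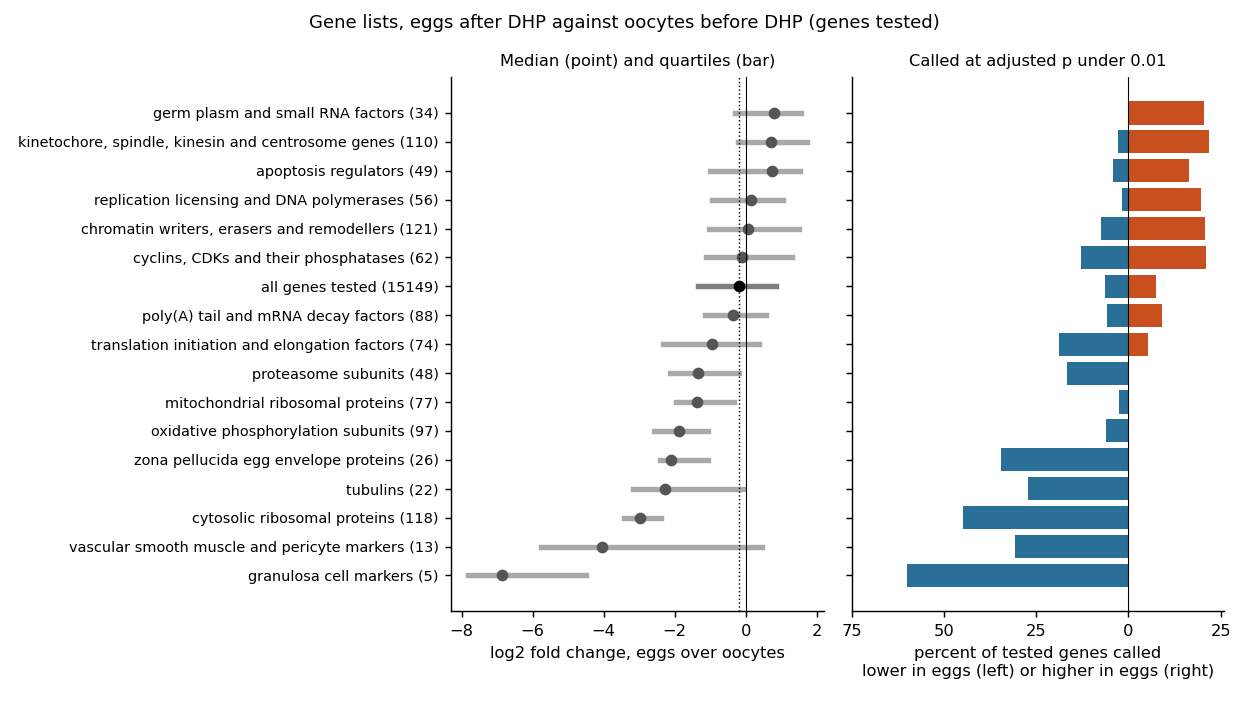
Gene lists with the number of tested genes in brackets: on the left the median (point) and quartiles (bar) of the log2 fold change of eggs over oocytes, with the median of all genes as a dotted line, and on the right the percentage of genes called lower (blue) and higher (orange). Ribosomal proteins have a median of -2.98 and granulosa markers of -6.86, while the median of germ plasm factors is 0.79.

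Egg envelope genes are transcribed in the growing oocyte, and in many fish also by the liver. All 26 tested zona pellucida genes had negative log2 fold changes, 9 of them were called lower, and the median was -2.10. In 18 genes all eggs were below all oocytes. LOC118223081, a ZP4-like gene, had 188, 373 and 324 in eggs, against 1482, 2267 and 2479.5 in oocytes (log2 fold change -2.82 ± 0.39, adjusted p = 0.0023, called in 5 of 6), zp3c had 311, 412 and 212 in eggs, against 1481, 1266 and 1487 in oocytes (log2 fold change -2.18 ± 0.36, adjusted p = 0.00361, called in 2 of 6) and zpax1 had 646, 1095 and 989 in eggs, against 1012, 1332 and 1821 in oocytes (log2 fold change -0.61 ± 0.35, adjusted p = 0.205), the last not passing the test. The number of lower genes lay between 0 without library 12 and 10 without library 8. The growth factor genes of the oocyte did not pass, with bmp15 at 1539, 2893 and 2394 in eggs, against 2544, 2706 and 3764 in oocytes (log2 fold change -0.40 ± 0.33, adjusted p = 0.368) and gdf3 at 1284, 3497 and 4128 in eggs, against 3774, 5028 and 7694 in oocytes (log2 fold change -0.89 ± 0.45, adjusted p = 0.151). zar1, a binder of maternal mRNAs, was lower (18.7, 44.3 and 36.3 in eggs, against 286, 156 and 139 in oocytes, log2 fold change -2.55 ± 0.55, adjusted p = 0.00858, 0.0116 with the pairs, called in 0 of 6). figla, a regulator of zona pellucida genes, had 71.3, 189 and 62.8 in eggs, against 179, 712 and 486 in oocytes and did not pass (log2 fold change -2.09 ± 0.62, adjusted p = 0.0289, 0.00919 with the pairs).

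Sex steroids and DHP are made from cholesterol in the theca and granulosa cells of the follicle. Of 31 tested enzymes and carriers 5 were lower and 2 higher (median -0.92), or 9 and 1 with the pairs. LOC118218511, annotated as steroid 17-alpha-hydroxylase/17,20 lyase, which acts on the precursor of DHP, had 0, 1.2 and 0 in eggs, against 371, 2146 and 2673 in oocytes. Its counts summed to 1 in eggs and 5852 in oocytes, and after scaling oocytes held 4079 times (95% exact interval of the counting error 732 to 161130) the level of eggs. The second gene of this enzyme, LOC118231945, had 0, 98.1 and 0 in eggs, against 968, 2136 and 482 in oocytes and did not pass the unpaired test (log2 fold change -5.18 ± 1.47, adjusted p = 0.0244, 0.00465 with the pairs). LOC118214002 for 3 beta-hydroxysteroid dehydrogenase, which makes progesterone, had 30.7, 5.98 and 33.5 in eggs, against 419.5, 1637 and 1106 in oocytes (log2 fold change -5.49 ± 0.75, adjusted p = 0.00218, called in 5 of 6), and LOC118215491 for the cholesterol side-chain cleavage enzyme had 49.4, 136 and 173 in eggs, against 1119.8, 1702 and 1220.1 in oocytes (log2 fold change -3.50 ± 0.50, adjusted p = 0.00256, called in 4 of 6). In contrast hsd17b12a, whose enzyme also elongates fatty acids, was higher (10504, 8970.4 and 7889 in eggs, against 4515, 3166 and 2355 in oocytes, log2 fold change 1.45 ± 0.31, adjusted p = 0.00862, called in 1 of 6). cbr1, a relative of the 20 beta-reductases that complete DHP in salmonids, had 88.9, 718 and 377 in eggs, against 418, 1518 and 1395 in oocytes (log2 fold change -1.49 ± 0.71, adjusted p = 0.128, 0.00794 with the pairs). Of the receptors, nr5a2, a nuclear receptor that drives steroid enzyme genes, had 0, 2.39 and 0 in eggs, against 200.4, 145 and 106 in oocytes (log2 fold change -7.33 ± 0.95, adjusted p = 0.00201, called in 5 of 6), and pgrmc1, a membrane progestin-binding protein, did not pass (369.8, 769 and 561 in eggs, against 735, 644 and 632 in oocytes, log2 fold change -0.24 ± 0.36, adjusted p = 0.625). Of a wider list of 15 granulosa genes 5 passed the filter on low counts, and 3 of these were called lower (5 with the pairs). Granulosa and theca marker sums were lower in eggs in the same libraries. LOC118218511, LOC118231945, LOC118214002 and LOC118215491 are themselves theca markers, so the theca sum is not separate from their values. Another theca marker, LOC118214003, overlapped between the groups and did not pass (351.1, 1143 and 698.7 in eggs, against 420.3, 413.9 and 497.6 in oocytes). The part of these cells in the result was not tested. Lower genes of the steroid list numbered between 1 without library 12 and 9 without library 8.

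Some adhesion and transport lists held a gene that fell and another that rose. Connexin 43, cx43, which couples follicle cells with each other and with the oocyte, had 1.1, 12 and 9.76 in eggs, against 12285, 6972 and 1937 in oocytes (log2 fold change -9.87 ± 0.97, adjusted p = 0.00153, called in 6 of 6), whereas LOC118210151, annotated as pannexin-1-like, a channel of the plasma membrane, had 6329.8, 4996 and 5891 in eggs, against 1154, 516 and 329 in oocytes (log2 fold change 3.11 ± 0.47, adjusted p = 0.0029, called in 3 of 6). Of the occludins, LOC118225222 had 0, 5.98 and 0 in eggs, against 611, 388 and 169.8 in oocytes (log2 fold change -7.50 ± 1.07, adjusted p = 0.00252, called in 4 of 6) and LOC118212103 had 4415, 5527 and 6744 in eggs, against 1786, 1091 and 1023 in oocytes (log2 fold change 2.10 ± 0.33, adjusted p = 0.00337, called in 3 of 6). Among claudins, LOC118222776, a putative claudin-24, had 0, 38.3 and 34.9 in eggs, against 4108, 2415 and 1146 in oocytes (log2 fold change -6.72 ± 1.06, adjusted p = 0.00337, called in 4 of 6) and LOC118234813, annotated as ZF-A89, had 43959, 64647 and 49761 in eggs, against 21782, 15623 and 18400 in oocytes (log2 fold change 1.5 ± 0.26, adjusted p = 0.00426, called in 2 of 6). Genes of 2 different subunits of the sodium-potassium pump also went opposite ways, with the beta subunit gene atp1b1a at 18.7, 88.5 and 34.9 in eggs, against 4586, 5542 and 3059.8 in oocytes (log2 fold change -6.53 ± 0.63, adjusted p = 0.00153, called in 6 of 6) and LOC118223159, annotated as subunit alpha-1-like, at 7502, 5524 and 6641 in eggs, against 887, 907 and 627 in oocytes (log2 fold change 3.02 ± 0.31, adjusted p = 0.00153, called in 6 of 6). In each of these pairs the gene that rose had at least 329 normalized counts in every oocyte library, and the gene that fell had at most 88.5 in any egg library. The genes were picked from the called ones by their p-values, so clear gaps between eggs and oocytes were fixed by that choice. The part of follicle cells in the falls was not tested.

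Over whole lists, 4 of 23 tested tight junction genes were higher and 5 lower, 1 of 6 connexins and pannexins was higher and 3 lower, and 2 of 35 pump and potassium channel genes were higher and 4 lower. Of 30 cadherins and catenins, 5 were higher and 4 lower, with a cadherin gene and the catenin genes ctnna1 and ctnnd1 on the higher side: LOC118215802, a B-cadherin-like gene (10793, 7742 and 8641 in eggs, against 2116, 1546 and 1314 in oocytes, log2 fold change 2.45 ± 0.31, adjusted p = 0.00192, called in 4 of 6), ctnna1 for alpha-catenin (7972, 6514 and 8447 in eggs, against 2280.1, 849 and 694 in oocytes, log2 fold change 2.58 ± 0.46, adjusted p = 0.00452, called in 2 of 6) and ctnnd1 for delta-catenin (4228, 3389 and 5711 in eggs, against 773, 169.7 and 153 in oocytes, log2 fold change 3.60 ± 0.64, adjusted p = 0.00454, called in 2 of 6). Aquaporins, the water channels of egg hydration and other tissues, had 2 lower genes of 5 tested. LOC118233042, aquaporin-4-like, had 0, 20.3 and 0 in eggs, against 3649, 6154 and 735 in oocytes (log2 fold change -8.97 ± 1.35, adjusted p = 0.0029, called in 3 of 6), and LOC118234674, aquaporin-1-like, had 0, 4.79 and 0 in eggs, against 699, 138 and 801 in oocytes (log2 fold change -8.29 ± 1.13, adjusted p = 0.00218, called in 5 of 6). A neighbouring aquaporin-1-like gene, LOC118234673, had 63.6, 147 and 76.7 in eggs, against 232, 533 and 654 in oocytes and did not pass the unpaired test (log2 fold change -2.30 ± 0.53, adjusted p = 0.0109, 0.00583 with the pairs). The lower aquaporins numbered between 0 without library 12 and 3 without library 3.

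Of 13 tested vascular smooth muscle and pericyte genes 4 were lower and 0 higher, with 8 negative and 5 positive log2 fold changes. The 2 named next had the largest falls of the list among called genes. kcnj8 and abcc9, the pore and the regulator of the ATP-sensitive potassium channel of vessel walls, had no count in eggs, against 721, 776 and 211 and 535, 292 and 131 normalized counts in oocytes, which put eggs at least 464-fold and 270.4-fold lower, with a floor of 3 counts over the group. Of 56 collagen, laminin and basement membrane genes 14 were lower and 2 higher. The lower ones included col1a1b (0, 2.39 and 0 in eggs, against 372, 68.5 and 455 in oocytes, log2 fold change -8.32 ± 1.15, adjusted p = 0.0023, called in 5 of 6). Summed smooth muscle markers were lower in eggs, and fibroblast markers were called in both directions. kcnj8 and abcc9 are themselves among the smooth muscle markers and col1a1b among the fibroblast markers, so these markers are not separate from the values above. The part of these cells in the result was not tested. In the insulin-like growth factor system, LOC118210713 for a binding protein had 8.78, 5.98 and 9.76 in eggs, against 6235, 5947 and 1687 in oocytes (log2 fold change -9.13 ± 0.67, adjusted p = 0.000688, called in 6 of 6) and the gonadal growth factor igf3 had 0, 3.59 and 0 in eggs, against 562, 415 and 163 in oocytes (log2 fold change -8.15 ± 1.01, adjusted p = 0.00191, called in 5 of 6). The TGF-beta list had 11 lower and 3 higher of 50 tested genes. The ligand bmp6 had 0, 2.39 and 0 in eggs, against 543, 376 and 107 in oocytes (log2 fold change -8.52 ± 1.07, adjusted p = 0.00196, called in 5 of 6), while the type I receptor acvr1ba for activin had 2352, 2201 and 2909 in eggs, against 737, 397 and 334 in oocytes (log2 fold change 2.35 ± 0.38, adjusted p = 0.00349, called in 3 of 6). In lipid uptake, lpl, the lipase that frees fatty acids from lipoproteins, had 1.1, 8.37 and 65.5 in eggs, against 4664, 5113 and 1598 in oocytes (log2 fold change -7.28 ± 1.13, adjusted p = 0.00318, called in 5 of 6). Of the metalloproteinases and their inhibitors, 6 of 44 were lower and 1 higher, among them LOC118216647, a TIMP2-like inhibitor (260, 360.1 and 343 in eggs, against 2675, 1619 and 1480.2 in oocytes, log2 fold change -2.58 ± 0.36, adjusted p = 0.00246, called in 5 of 6). Lower genes numbered between 1 without library 12 and 13 without library 8 in the collagen list and between 1 without libraries 12 and 7 and 9 without library 8 in the TGF-beta list.

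The number of calls differed with the library that was left out. All these fits had fewer libraries than the full fit, which by itself lowers the power to call genes. With 1 library left out, between 122 genes (without egg 12) and 1708 (without egg 8) were called, the number being 777 without egg 4, 1500 without oocyte 3, 192 without oocyte 7 and 365 without oocyte 11. Removal of egg 8 raised the calls on the lower side to 961, and removal of egg 12 left 57. A set of 94 genes (0.621%) was called in the unpaired fit, in the paired fit and in all 6 fits without 1 library, 48 of them (0.317%) higher and 46 (0.304%) lower in eggs. It held the cyclins A1, B1, B2 and J-like, anln, kif22, tpx2, prc1b, cdc6, cnot8, ago2, ddx4, dnd1, pou5f3, cdc25b and raver1, and on the lower side parn, LOC118235015 for L39, cx43, atp1b1a, kcnj8, abcc9, pgr and LOC118210713. pgr, the nuclear progestin receptor, had 18.7, 5.98 and 4.18 in eggs, against 3618, 2380.2 and 1498 in oocytes (log2 fold change -7.97 ± 0.67, adjusted p = 0.00134, called in 6 of 6). Other members were sil1, an exchange factor of the endoplasmic reticulum (39.5, 123.2 and 41.8 in eggs, against 5922, 2707 and 2162 in oocytes, log2 fold change -5.72 ± 0.64, adjusted p = 0.00184, called in 6 of 6), and LOC118231958, annotated as RNA-binding protein 47-like (0, 2.39 and 1.39 in eggs, against 716, 554 and 263 in oocytes, log2 fold change -8.56 ± 0.82, adjusted p = 0.00153, called in 6 of 6).

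**Figure D5:**
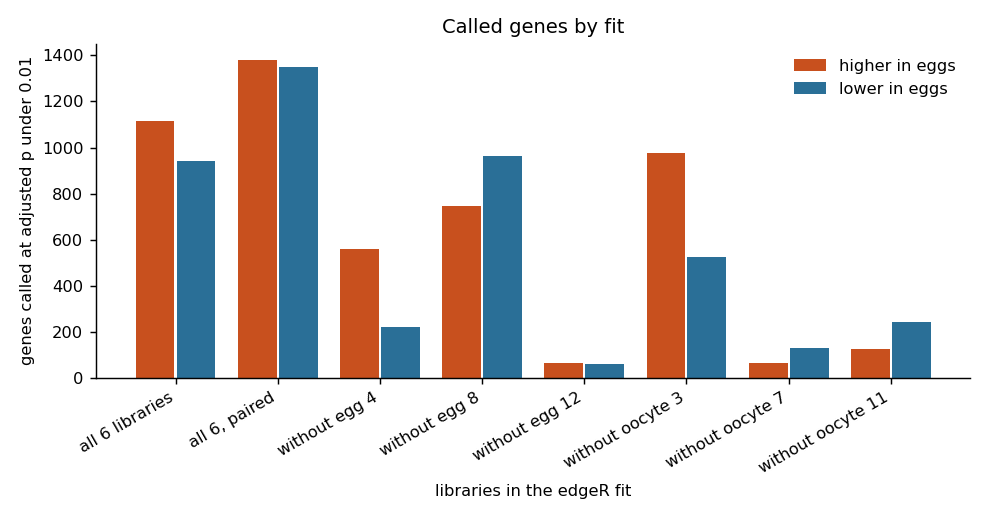
Number of genes called higher (orange) and lower (blue) in eggs in edgeR fits of all 6 libraries, of all 6 with the pairs as a block, and of 5 libraries with 1 left out. The unpaired fit of all 6 has 1114 higher and 943 lower genes, the fit without egg 12 has 65 and 57.

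The change from oocyte to egg was set beside that after P, which was measured in the other 6 libraries and shares none with the DHP comparison. After P 6227 of 15348 tested genes (40.6%) were called, 2744 (17.9%) higher and 3483 (22.7%) lower. The difference between both changes was tested in a fit of all 12 libraries. Of 16891 genes, 0 (0%) differed at an adjusted p under 0.01 in edgeR, with 700 at an unadjusted p under 0.05. limma-voom called 0 as well, with 439 at an unadjusted p under 0.05, and DESeq2 called 3, LOC118208510 (an anion transporter), LOC118231945 (17,20 lyase) and ppan (ribosome assembly), which are named here because DESeq2 called them. Their edgeR log2 fold changes were -5.4 ± 1.68, -5.18 ± 1.47 and -2.09 ± 0.40 after DHP, against -11.7 ± 1.85, -14.1 ± 0.59 and -5.32 ± 0.34 after P. For LOC118208510 and LOC118231945, egg 8 was the only DHP egg with a count (106.5 and 98.1 normalized counts). With the 6 pairs of oocyte and egg libraries as a block, an alternative added after the data were seen, edgeR again called 0 genes, with 783 at an unadjusted p under 0.05. All these unadjusted counts were below a share of 0.05 of the 16891 genes. Such a cutoff passes that share on average when no gene differs. A larger number of calls after P is therefore not shown to be a larger change of given genes. The log2 fold changes of single genes stood side by side as follows. Cyclin A1 had 3.46 ± 0.25 after DHP and 4.17 ± 0.55 after P, parn had -3.17 ± 0.36 after DHP and -4.49 ± 0.36 after P, and pou5f3 had 5.25 ± 0.60 after DHP and 5.0 ± 0.65 after P. Medians of ribosomal proteins were -2.98 after DHP and -4.31 after P, those of zona pellucida genes -2.10 after DHP and -1.74 after P, and those of oxidative phosphorylation subunits -1.87 after DHP and -2.47 after P. Without egg 8 the DHP medians of these 3 lists were -4.145, -2.24 and -2.56, in the same order. Whether the medians differed between the treatments was not tested.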

How the data were processed

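RNA-seq was available for 12 samples, of which the 3 samples of eggs after DHP and the 3 of oocytes before DHP were compared here, as grouped by the sample labels. The deposited counts are numbers of fragments assigned to each gene. For them the authors took stranded poly(A) libraries read as paired 150-base reads, aligned them to the European eel genome with TopHat 2.0.13, removed secondary alignments with SAMtools 1.2 and counted with HTSeq 0.6.1p1. How strand was set in the counting is not given in the sources, so overlapping and antisense genes, like near-identical copies, are uncertain. The deposited tables also hold the authors' DESeq results (p-values, adjusted p-values and fold values), which were not used. Tables list 31061 genes, 24115 with a count in the 6 libraries, and all 29999 gene IDs matched RefSeq names of fAngAng1.pri. 0 columns of samples were left unused. Libraries had 6612347 to 9241120 counts, and intervals and floors cover counting error only.

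Genes were tested with edgeR 4.0.16 (filterByExpr with a minimum count of 10, TMM, quasi-likelihood test, Benjamini-Hochberg adjustment over all genes tested, threshold 0.01) in R 4.3.3, unpaired as in the study. Log2 fold changes are eggs over oocytes with SE. Where a group had no count, a floor of 3 counts over the group gave the bound. The same females gave oocytes and eggs according to the study, but the tables carry no replicate number, so libraries were paired by their order (4 with 3, 8 with 7 and 12 with 11). Deviations from the group means had r of 0.272, 0.416 and 0.341 within these pairs, against -0.299 to -0.0435 in other combinations. Such deviations cancel out within a group, so positive r within pairs forces negative values on average elsewhere. The negative values are therefore no separate evidence for the pairs. The paired fit used the pairs as a block. Alternatives were RLE scaling, total counts, DESeq2 1.42.0, limma 3.58.1 voom, other filters, thresholds, 1 fit of 12 libraries and each library left out. Programs ran in Python 3.11.15 with pandas 2.3.3 and were tested on simulated data.

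The 42 gene lists came from gene names and products. Members and lists were chosen with earlier results of these data known. Named genes were the 10 largest changes and the 10 smallest p per direction, the 10 most abundant genes per group, up to 4 called genes per list and 3 against its direction, up to 2 that did not pass, genes called in every fit, genes the study names, and cell type markers. Largest changes needed a mean of at least 50 normalized counts. No sequences are shown, since no sequence table was used here.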

Additional observations from a re-analysis of the deposited data

How the results depend on the processing

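The count of 2057 DEGs came to 2152 with RLE scaling, 2595 with total counts, 2680 with limma-voom, 2959 without a filter, 2180 with a minimum count of 50 and 2732 with the replicate block, which pairs the libraries. It was 4470 with DESeq2 (2258 higher, 2212 lower), 3588 in 1 fit of all 12 libraries (1970 higher, 1618 lower), 439 for changes over 2-fold (193 higher, 246 lower) and 5145 at an adjusted p under 0.05 (2390 higher, 2755 lower). Total counts gave 490 higher and 2105 lower. Without 1 library the count ran from 122 to 1708, the higher genes from 65 to 976 and the lower ones from 57 to 961. For the difference between the treatments DESeq2 called 3 genes where edgeR, edgeR with the replicate block and limma-voom called 0. No called gene named here changed direction under these alternatives. Of 114 such genes 36 kept the call without library 12, 46 without library 7, 62 without library 11, 99 with total counts and 111 with the replicate block. Genes that had not passed turned direction with total counts for LOC118213846 (-0.15) and btg4 (-0.23), and pgrmc1 ran from -0.51 to 0.0059 without 1 library. List medians turned with total counts for the anaphase-promoting complex (-0.48), replication (-0.45) and chromatin genes (-0.50), and with a minimum count of 50, which tests fewer genes, for cyclins (0.26), embryonic transcription factors (0.064), histones (0.92), erythrocyte markers (0.55) and the sodium-potassium pump list (0.032). Without 1 library the median of the cyclins ran from -0.14 to 0.10 and that of the histones from -0.35 to 0.026. The cause of these turns was otherwise not tested. Outlier tests were not run in groups of 3.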

Other observations

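Apoptosis regulators were tested for 49 genes, of which 8 were higher and 2 lower in eggs (median log2 fold change 0.76, 0.16 with total counts). Genes against cell death and for it were both among the higher ones. xiap, an inhibitor of caspases, had 940.3, 738 and 1330.4 in eggs, against 219, 235 and 293 in oocytes (log2 fold change 2.01 ± 0.36, adjusted p = 0.00471, called in 1 of 6), and LOC118207640, annotated as a homologue of the death effector BAK, had 419, 347 and 467 in eggs, against 103, 82.4 and 109.5 in oocytes (log2 fold change 2.06 ± 0.38, adjusted p = 0.0052, called in 1 of 6). fas, a death receptor, was lower (32.9, 40.7 and 46 in eggs, against 202, 136 and 217 in oocytes, log2 fold change -2.21 ± 0.47, adjusted p = 0.00785, called in 0 of 6). Ubiquitin-conjugating enzymes and deubiquitinases had 10 higher and 9 lower of 122 tested, shares near those over all genes. Leukocyte genes had 0 higher and 0 lower of 15 tested, and of 19 prostaglandin genes 1 was lower, the phospholipase gene pla2g4aa (4.39, 5.98 and 6.97 in eggs, against 663, 113 and 129.6 in oocytes, log2 fold change -5.69 ± 0.87, adjusted p = 0.0031, called in 4 of 6). Higher apoptosis genes numbered between 0 without libraries 12 and 7 and 5 without libraries 8 and 3.

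The list of sialic acid synthesis and transfer had 28 tested genes, of which 6 were lower and 0 higher in eggs (median -0.67). Its log2 fold changes were positive in 9 genes and negative in 19. A row of neighbouring genes on chromosome 2 was lower in eggs at every member. The values of these 4 genes and of casd1 had been seen when they were picked for description. They are annotated as cytidine monophosphate-N-acetylneuraminic acid hydroxylase-like, after the enzyme that turns the sialic acid Neu5Ac into Neu5Gc, and lie in the reference assembly fAngAng1.pri at 76295670 to 76349548 (LOC118221204), 76370858 to 76408721 (LOC118221927), 76418185 to 76457018 (LOC118221926) and 76465300 to 76483165 (LOC118220432). LOC118221926 had 0, 4.79 and 0 in eggs, against 515, 1458 and 411 in oocytes, and LOC118221204 had 0, 4.79 and 0 in eggs, against 356, 1026 and 427 in oocytes. LOC118221927 and LOC118220432 had no count in eggs, against 141, 199.5 and 104 and 158, 121 and 61.9 normalized counts in oocytes, which put eggs at least 119-fold and 94.6-fold lower. All 4 were called lower in edgeR, and 3 of them were called in every fit without 1 library. Similar copies may share reads in such a row, so the split between the 4 genes is uncertain. casd1, whose enzyme adds acetyl groups to sialic acids, had 13.2, 19.1 and 2.79 in eggs, against 318, 625 and 347 in oocytes and was also called in every fit (log2 fold change -5.17 ± 0.68, adjusted p = 0.00202). Granulosa and stroma marker sums were lower in eggs in the same libraries, and their part in the result was not tested.

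Single oocyte libraries carried some of the largest values. pnp4a, a purine nucleoside phosphorylase gene, had 0, 1.2 and 0 in eggs, against 8328, 21.8 and 617 in oocytes, so that oocyte 3 held most of its counts. LOC118227036, annotated as a receptor for retinol uptake, had 0, 0 and 0 in eggs, against 995, 108 and 100.3 in oocytes. The Wnt-related pseudokinase gene LOC118221615, annotated as inactive tyrosine-protein kinase 7-like, had 2693, 2327 and 4598 in eggs, against 253, 11.9 and 31.8 in oocytes, again with oocyte 3 far above the other oocytes.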
